A study of Mus musculus with 6 samples.

Results

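The genes described are those of the SNARE fusion machinery, the proteins that join membranes inside the cell, in A316 cells. A316 is a primary line from a mouse adenocarcinoma that lacks Cebpa by knockout. Cebpa encodes C/EBP alpha, a transcription factor, and the study concerns lung adenocarcinoma with little C/EBP alpha. Both groups carry that knockout: 3 Affymetrix arrays are of cells given PTC-209, a Bmi inhibitor by the labels, dissolved in 0.5% DMSO, and 3 are of cells given 0.5% DMSO alone. The sources used here give neither the dose nor the exposure time, and they do not say whether arrays are of separate cultures. The p-values therefore measure only the spread between these arrays, which may be technical. The free-text sample descriptions speak of embryo stages, which conflicts with the titles, source and treatment labels, so the groups were taken from the titles. The genes were taken by name: syntaxins (Stx), syntaxin-binding proteins (Stxbp), VAMPs, the SNAP-25 family, the factors Napa, Napb, Napg and Nsf, and 8 further SNAREs of the Golgi and endosomes. They number 42 of the 19937 genes that the arrays name, with 43 probe sets of 1 symbol between them. Where a gene had more than 1 such probe set, the one with the highest mean over all 6 arrays stood for it. That choice arose for Stxbp4 alone. Napb was singled out because its large rise was already known, so its difference is given as a description and without a test.

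SNARE proteins sit on vesicles and on the membranes these fuse with. A bundle of 4 helices, of the classes Qa, Qb, Qc and R, zips together across the gap and draws the membranes into fusion. Syntaxins are mostly Qa, VAMPs are R, and SNAP-25 and its relatives bring a Qb and a Qc helix in 1 protein. Afterwards the ATPase NSF, held on the spent bundle by an adaptor called SNAP (soluble NSF attachment protein, unrelated to SNAP-25), pulls the helices apart for reuse. Sec1/Munc18 proteins hold syntaxins and guide assembly, and each stretch of the secretory and endocytic route has its own SNARE set.

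With PTC-209, 6 of the 8 ER and Golgi SNAREs in the set rose, while its Sec1/Munc18 genes Stxbp2 and Stxbp3 and the ATPase gene Nsf fell. Both counts follow the choice by name. Use1, an ER SNARE outside the set, fell. Of 5 Sec1/Munc18 and related genes outside it, Vps45 and Vps33a rose, Scfd2 fell, and Scfd1 and Vps33b did not pass. The count of ER and Golgi SNAREs also follows the sites, which were assigned with earlier results known. The 8 ER and Golgi genes and the 2 Sec1/Munc18 genes are too few for their shares to be read against those of all genes, given below. With a fold change above 1.2 required, 2 of the 6 rises and 0 of the falls of Stxbp2, Stxbp3 and Nsf remained. Napb, the gene of beta-SNAP, went from a level under the array median to one well above it. Apart from Napb, 13 of 41 genes rose and 8 fell, a share of 31.7% up and 19.5% down (limma on log2 values, adjusted p under 0.05 over all probe sets). Among all named genes 12.9% rose and 13.7% fell, 26.6% together. The SNARE genes are brighter than most, since 38 of the 42 had a mean over all 6 arrays at or above 4.33. This value, called the array median here, is the median of such means over all probe sets outside the control block. Among all genes with a mean at or above it 22.1% rose and 23.5% fell, so the share that fell was close to this background. The median log2 difference (PTC-209 minus DMSO) was 0.16 over the 41 genes, 0.19 with Napb, and 0.03 over all named genes. On 17 of the 41 genes all PTC-209 arrays lay above all DMSO arrays, and on 9 below, where the shares over all named genes are 21.1% and 19.4%. For these shares and for the median difference no value over the brighter genes alone was computed. The part of brightness in these gaps was not tested. The median level of the 42 genes was 6.74, 6.82 and 6.74 on the DMSO arrays and 7.09, 6.99 and 6.99 on the PTC-209 arrays, so the groups did not overlap. With fold changes above 1.2 demanded by the test, 6 genes rose, Napb included, and 1, Stxbp6, fell. The count of falls was 5 when replicate 2 of either group was left out and 4 when replicate 3 of either was.

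**Figure D1:**
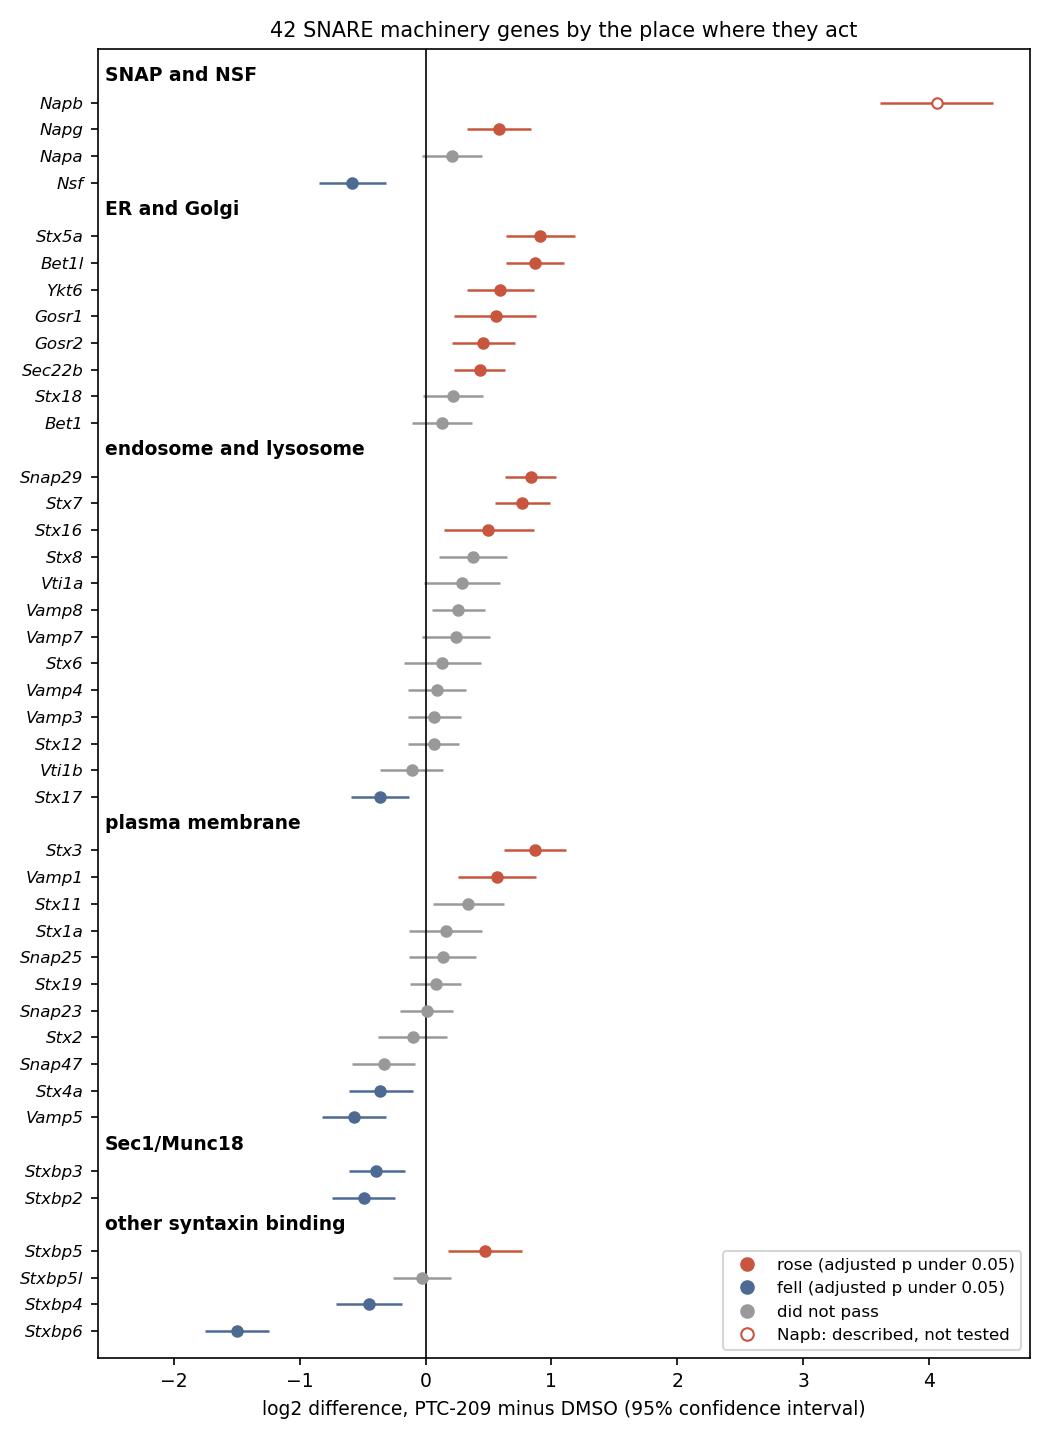
Log2 difference (PTC-209 minus DMSO, x axis) of each of the 42 genes with its 95% confidence interval from limma, grouped by where the protein acts, with colour marking genes that rose, fell or did not pass. Napb (open circle, 4.06) stands far to the right, 6 of the 8 ER and Golgi genes are coloured as risen, and Stxbp6 (-1.50) is the lowest.

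Napb was at 3.89, 3.72 and 3.08 on the DMSO arrays (mean 3.56 ± 0.43, SD of 3 arrays) and at 7.81, 7.39 and 7.67 on the PTC-209 arrays (7.62 ± 0.21). All DMSO values lie under the median of 4.33 and all PTC-209 values more than 3 log2 units above the highest of them. The log2 difference was 4.06. Because the lower group is near the background of the arrays, its exact size is uncertain, and levels are given and no fold. Beta-SNAP is the brain-enriched relative of alpha-SNAP, the SNAP that is found in most tissues. In bulk RNA, more cells with a transcript and more transcript per cell cannot be told apart. Gzf1, the next gene on the chromosome on 1 side of Napb in the RefSeq table (GRCm38.p6), fell from 6.37 ± 0.16 to 5.88 ± 0.20 (limma adjusted p = 0.0199). On the other side lies Cstl1, at 2.67 and 2.75, both under the array median.

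The stretch before the start of Napb is shown because the level of Napb differs most between the groups. It is RefSeq sequence (GRCm38.p6, chr2:148732426-148732670, minus strand) of 245 bases, ending 6 bases before the start of transcription.
Napb: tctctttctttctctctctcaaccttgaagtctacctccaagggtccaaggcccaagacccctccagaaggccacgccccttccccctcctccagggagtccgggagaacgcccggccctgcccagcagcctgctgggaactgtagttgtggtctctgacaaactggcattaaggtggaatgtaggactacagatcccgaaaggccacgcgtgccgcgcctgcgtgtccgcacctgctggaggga
It is all in lower case because none of the 5 motifs searched for, described further on, is present in it.

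The other genes of SNARE disassembly moved less, and in both directions. Napa, the gene of alpha-SNAP, was at 7.57, 7.37 and 7.32 in DMSO and at 7.74, 7.57 and 7.58 with PTC-209. Its groups overlap, and its log2 difference of 0.21 (95% confidence interval -0.03 to 0.45) did not pass (limma adjusted p = 0.208). Napg, the gene of gamma-SNAP, a more distant relative, rose 1.5-fold, from 6.36, 6.14 and 6.06 to 6.86, 6.64 and 6.81 (log2 difference 0.58, SE 0.113, limma adjusted p = 0.00402). Nsf, the gene of the ATPase that all 3 SNAPs serve, fell 1.5-fold, from 6.73, 6.39 and 6.34 to 5.97, 5.89 and 5.86 (log2 difference -0.58, SE 0.12, limma adjusted p = 0.00583). Neither gene's groups overlap. Both calls held whichever array was left out, and both ended when the fold change had to exceed 1.2.

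**Figure D2:**
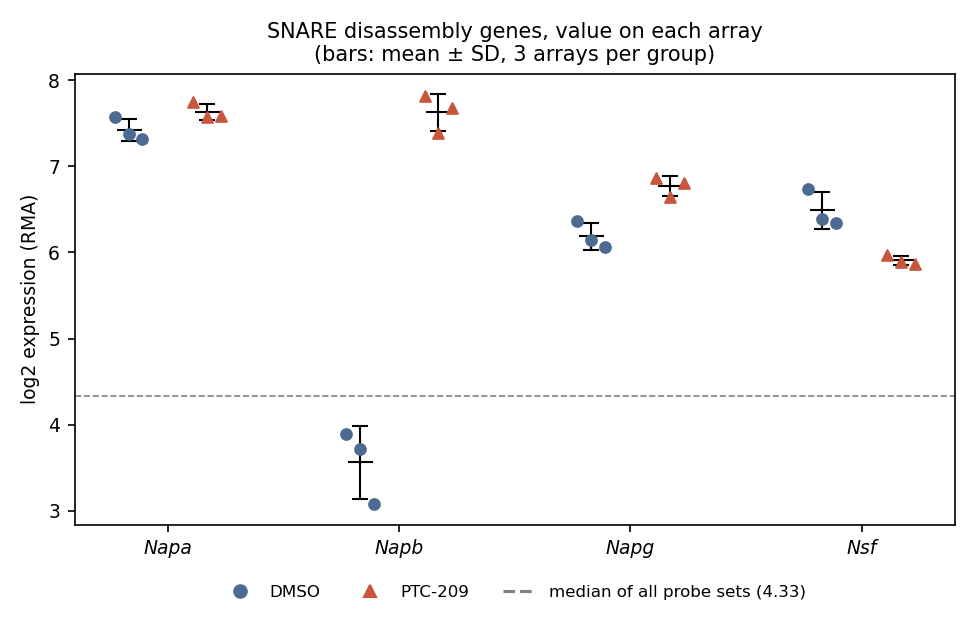
Log2 expression (y axis) of the 4 disassembly genes on each array, with circles for DMSO and triangles for PTC-209. Bars are mean ± SD of 3 arrays, and the dashed line is the median of all probe sets outside the control block, 4.33. Napb crosses the line (3.56 to 7.62), Napg is higher and Nsf lower with PTC-209, and the groups of Napa overlap.

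Of the 8 SNAREs of the ER and Golgi in the set, 6 rose and 0 fell, and all 8 had a difference above 0 (median 0.51). Among all genes with a mean at or above the array median 22.1% rose, but 8 genes are too few for their share to be read against that. The group of 8 rests on sites assigned with earlier results known. Stx16, which rose, and Vti1a, Stx6 and Vamp4, which did not pass, also act at the Golgi but are counted with the endosomes. Of 4 further SNAREs and SNARE relatives outside the set, Use1 fell (log2 difference -0.79, limma adjusted p = 0.00104), Sec22c rose (0.52), and Bnip1 (0.33) and Sec22a (0.05) did not pass. Stx5a, the syntaxin of ER-to-Golgi and intra-Golgi transport, rose 1.88-fold, from 7.27, 6.95 and 7.12 in DMSO to 8.11, 7.84 and 8.12 (limma adjusted p = 4.46e-04). Bet1l, known as GS15, its Qc partner within the Golgi, rose 1.83-fold, from 5.48, 5.39 and 5.33 to 6.13, 6.36 and 6.31 (limma adjusted p = 1.91e-04). Both genes separate the groups by at least as much as the whole spread within either group. Ykt6, an R-SNARE held on membranes by lipids, was at 5.96, 5.65 and 5.59 in DMSO and at 6.29, 6.29 and 6.40 with PTC-209, a 1.51-fold rise (limma adjusted p = 0.00457). Gosr1, the Qb SNARE GS28, went from 6.52, 6.52 and 6.05 to 6.96, 7.01 and 6.78. Gosr2, the Qb SNARE membrin, went from 7.07, 6.89 and 6.83 to 7.44, 7.23 and 7.49. Stx5a, Gosr1, Bet1l and Ykt6 are the known partners of 1 Golgi complex, and all 4 genes rose. Sec22b, the R-SNARE of ER-to-Golgi vesicles, had the tightest arrays, from 8.28, 8.20 and 8.26 to 8.67, 8.63 and 8.72 (log2 difference 0.43, SE 0.0888, limma adjusted p = 0.0062).

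The remaining ER and Golgi genes did not pass. Stx18, the syntaxin of transport back to the ER, had a difference of 0.22 (limma adjusted p = 0.189) although its groups did not overlap, and Bet1, the Qc SNARE of ER-derived vesicles, one of 0.13. The calls of Gosr1 (limma adjusted p = 0.0184) and Gosr2 (0.0143) were the least firm: Gosr1 failed without PTC-209 replicate 1 or 2, and Gosr2 when DMSO replicates 2 or 3 or else PTC-209 replicates 1 or 3 were dropped. With a fold change above 1.2 required, the calls of Stx5a and Bet1l held and the other 4 ended.

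**Figure D3:**
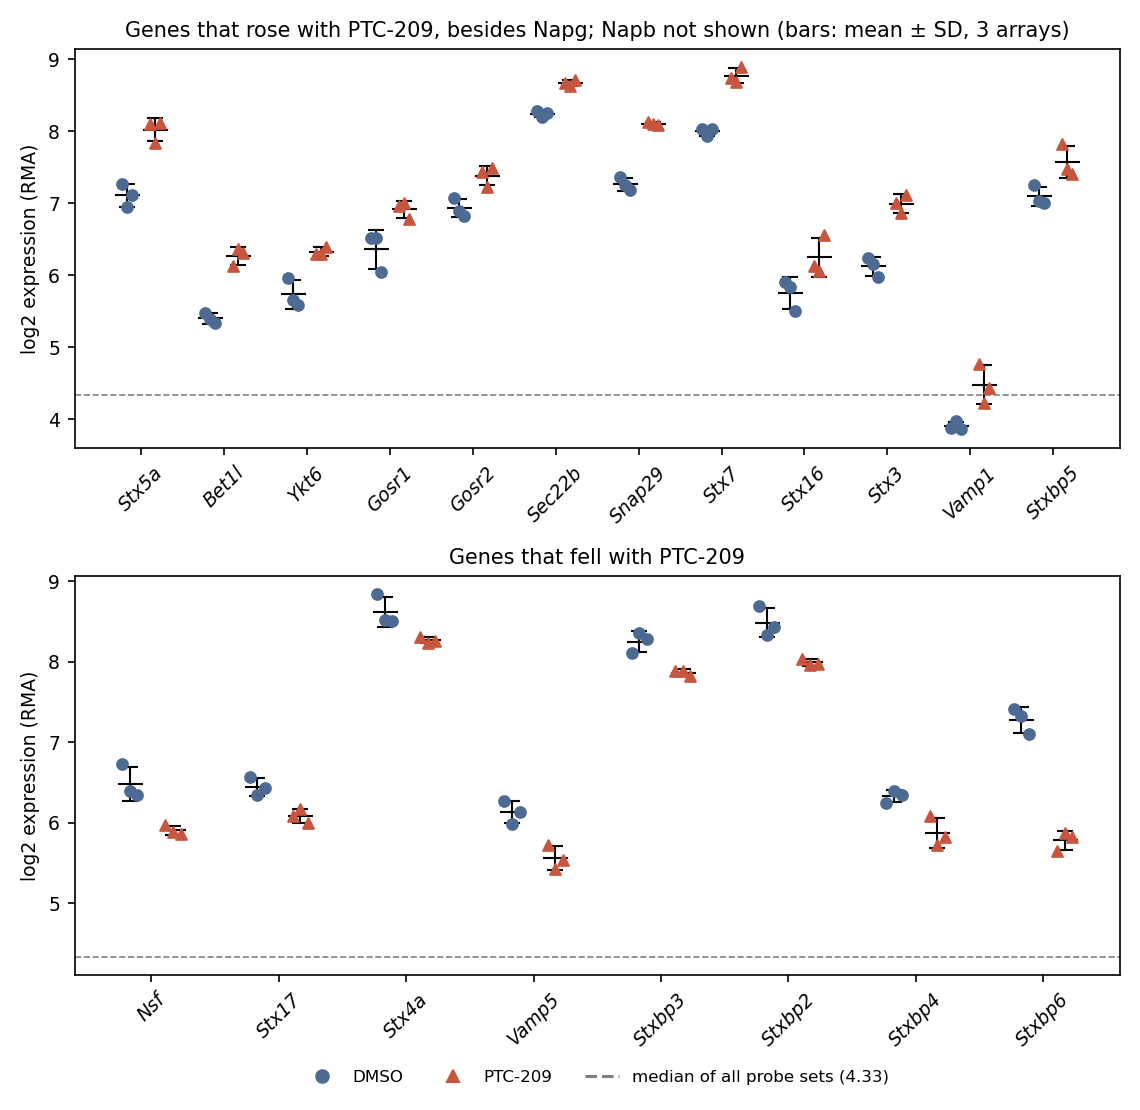
Log2 expression (y axis) on each array for genes that rose (top, 12 genes) and genes that fell (bottom, 8 genes). Circles are DMSO, triangles PTC-209 and bars mean ± SD of 3 arrays. The dashed line is the median of all probe sets outside the control block, 4.33. For every gene shown the groups do not overlap, and the gap is widest for Stxbp6.

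On the route through endosomes to lysosomes, 3 of 13 genes rose, 1 fell and 9 did not pass. The share that rose, 23.1%, was near the 22.1% of all genes with a mean at or above the array median. Snap29, a Qbc SNARE that helps autophagosomes fuse with lysosomes, rose 1.78-fold, from 7.36, 7.26 and 7.18 to 8.13, 8.10 and 8.09 (limma adjusted p = 1.36e-04). Stx7, the Qa syntaxin of late endosomes and lysosomes, rose 1.71-fold, from 8.03, 7.93 and 8.04 to 8.74, 8.69 and 8.89 (limma adjusted p = 3.03e-04). Both calls held under every alternative tried. Stx16, the syntaxin of traffic into the trans-Golgi network, went from 5.91, 5.84 and 5.50 to 6.13, 6.06 and 6.56. It passed narrowly (limma adjusted p = 0.0465) and failed on dropping any 1 of DMSO replicates 2 and 3 and PTC-209 replicates 1 and 3. It also failed after cyclic loess (0.0587) and with the control probe sets kept (0.0997).

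Stx17, the syntaxin of autophagosomes, moved the other way from its partner Snap29. It was at 6.57, 6.35 and 6.43 in DMSO and at 6.09, 6.17 and 6.0 with PTC-209, a 1.28-fold fall (limma adjusted p = 0.0281). The call ended when replicate 1 or 3 of either group was left out and when the control probe sets were kept. Vamp8, the R-SNARE of that complex, was at 10.07, 10.18 and 10.08 in DMSO and at 10.33, 10.33 and 10.45 with PTC-209. Its groups did not overlap, but it did not pass (log2 difference 0.26, limma adjusted p = 0.0748).

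Stx8, the Qc partner of Stx7, fell just outside the threshold, with a difference of 0.38 (limma adjusted p = 0.0501) and groups that did not overlap. The other partners of late endosomal fusion, Vti1b and Vamp7, had differences of -0.11 and 0.24. Vti1a (0.29), Stx6 (0.13) and Vamp4 (0.09), Golgi and early endosome SNAREs, did not pass. Nor did Vamp3 (0.07) and Stx12 (0.07), of recycling and early endosomes. The 95% confidence intervals of Vamp3 (-0.14 to 0.28) and Stx12 (-0.14 to 0.27), both bright, leave room for small changes only.

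Among the 11 SNAREs of the plasma membrane 2 rose, 2 fell and 7 did not pass, with a median difference of 0.08. The shares that rose and fell, 18.2% each, did not exceed the 22.1% and 23.5% of all genes with a mean at or above the array median. Stx3, the syntaxin of the apical surface of epithelia, rose 1.83-fold, from 6.24, 6.16 and 5.98 to 7.01, 6.86 and 7.12 (limma adjusted p = 3.25e-04), and held under every alternative. Vamp1, synaptobrevin 1, rose from 3.88, 3.97 and 3.86 to 4.77, 4.23 and 4.43 (limma adjusted p = 0.013), levels on either side of the array median.

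Stx4a, the syntaxin of the basolateral surface, fell 1.28-fold, from 8.84, 8.52 and 8.51 to 8.31, 8.24 and 8.26 (limma adjusted p = 0.0459). This call failed whichever of the 6 arrays was left out, after median centring, and with the control probe sets kept. Vamp5, an R-SNARE known from muscle, fell 1.48-fold, from 6.27, 5.99 and 6.14 to 5.72, 5.43 and 5.54 (limma adjusted p = 0.00519). Vamp8 is its next neighbour among the protein-coding genes of the RefSeq table, and the differences of the pair were opposite in sign (-0.57 and 0.26), that of Vamp8 not passing.

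The bright genes Snap23, the SNAP-25 relative of non-neuronal cells (8.55 in DMSO, 8.57 with PTC-209), and Stx2 (6.35 and 6.24) did not pass, with 95% confidence intervals of -0.20 to 0.22 and -0.38 to 0.17. Snap47 had a difference of -0.33 (limma adjusted p = 0.0611) and Stx11, a syntaxin known from cytotoxic lymphocytes, one of 0.34 (limma adjusted p = 0.0782), each without overlap of the groups. Stx1a was at 4.49 and 4.65. Snap25, of synapses, at 3.20 and 3.34, and Stx19, at 3.57 and 3.65, lay under the array median in both groups.

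The Sec1/Munc18 genes of the set, Stxbp2 and Stxbp3, fell. Of 5 Sec1/Munc18 and related genes outside it, Vps45 and Vps33a rose and Scfd2 fell (log2 difference -0.44, limma adjusted p = 0.00748). Scfd1 (-0.28, groups without overlap) and Vps33b (-0.03) did not pass. Stxbp2, Munc18-2, known to bind Stx3 and Stx11, fell 1.41-fold, from 8.69, 8.34 and 8.43 to 8.04, 7.96 and 7.98 (limma adjusted p = 0.00952). Stxbp3, Munc18-3, known to bind Stx4, fell 1.31-fold, from 8.11, 8.36 and 8.29 to 7.89, 7.89 and 7.82 (limma adjusted p = 0.0188). The call of Stxbp3 was lost without replicate 2 or 3 of either group, while that of Stxbp2 held whichever array was left out. A pseudogene of Stxbp3 is annotated with it on another probe set, so the level of Stxbp3 may hold signal from a near copy. Thus Stxbp2 fell where its known partner Stx3 rose, and Stxbp3 and Stx4a both fell.

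Stxbp6 had the largest fall of the set. This gene encodes amisyn, which has a SNARE helix but no membrane anchor and is known as a brake on exocytosis. It was at 7.41, 7.33 and 7.10 in DMSO and at 5.65, 5.88 and 5.82 with PTC-209, a 2.82-fold fall (log2 difference -1.50, 95% confidence interval -1.75 to -1.24, limma adjusted p = 1.28e-05). The gap between the groups is many times the spread within them, and the call held under every alternative. The nearest protein-coding neighbours of Stxbp6 in the RefSeq table are Nrcam, at 3.42 and 3.96 (limma adjusted p = 0.00146), and Nova1, at 2.44 in both groups, all under the array median.

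Stxbp5, tomosyn, another SNARE-like brake, rose 1.39-fold, from 7.25, 7.03 and 7.01 to 7.83, 7.48 and 7.41 (limma adjusted p = 0.027), and failed on dropping any 1 of DMSO replicates 2 and 3 and PTC-209 replicate 1, and with the control probe sets kept. Its relative Stxbp5l was dim, at 2.27 and 2.24. Stxbp4, Synip, known to bind Stx4, is the only one of these genes with 2 probe sets that carry its symbol alone, and the 2 disagree. The brighter one, with a mean of 6.10 over all 6 arrays, fell from 6.33 ± 0.071 to 5.88 ± 0.19 (log2 difference -0.45, limma adjusted p = 0.0173). The other, with a mean of 5.98, was at 5.89 ± 0.22 and 6.06 ± 0.071 (log2 difference 0.17, limma adjusted p = 0.419). The call of Stxbp4 ended when both were averaged and when replicate 2 or 3 of either group was left out, so its direction rests on 1 probe set.

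Sorted by class instead, the 32 SNARE proteins had 11 rises (34.4%) and 3 falls (9.38%), with a median difference of 0.23. The 10 factors that act on them had 3 rises, Napb included, and 5 falls (median -0.21). Among all genes with a mean at or above the array median 22.1% rose and 23.5% fell. The factors and the single classes hold too few genes for their shares to be read against that. Among the SNAREs 4 of 12 Qa, 2 of 4 Qb, 1 of 4 Qc, 1 of 4 Qbc and 3 of 8 R genes rose, and the falls were 2 Qa genes, Stx4a and Stx17, and 1 R gene, Vamp5.

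The 250 bases before each start of transcription were searched on both strands for letters bound by factors of stress and lysosome programs, in the 38 genes that the RefSeq promoter table holds (GRCm38.p6). The C/EBP-ATF motif TGATGNAA was found in 0 of the 38, against 3.91% of all genes in the table. The cAMP response motif TGACGTCA was found in 2 (1.77% of all genes), Gosr2, which rose, and Stxbp3, which fell. The antioxidant motif TGACNNNGC, which shares its first letters with the previous one, was found in 3, Stx16, Vamp1 and Vti1a (11.5%). The E-box CACGTG was found in 5, Napa, Nsf, Stx6, Stxbp2 and Vamp4 (6.86%), and the longer form TCACGTGA of lysosomal genes, which contains the E-box, in Stx6 alone (0.907%). A match is a description of letters and not of binding.

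These windows show the rarest matches, with the motif in capitals, the cAMP response motif in a gene that rose (Gosr2) and one that fell (Stxbp3), and the longer E-box form in one that did not pass (Stx6). Gosr2 lies at chr11:103697929-103697958 (minus strand), Stxbp3 at chr3:108840592-108840621 (minus strand) and Stx6 at chr1:155158606-155158635 (plus strand). Each window has 30 bases. Outside any gene of the RefSeq table lie 0 of them for Gosr2, all 30 for Stxbp3 and 22 for Stx6.
Gosr2: gggggaggctcTGACGTCAgtgcctcgcga
Stxbp3: gttgatgcgcgTGACGTCAcctgagggcgc
Stx6: ggcgatctgggTCACGTGAgcctgagtgcg
Gosr2 and Stxbp3 hold the same 8 letters and differ in direction, with log2 differences of 0.46 and -0.39.

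Genes that work with SNAREs, from a list of 75 of which 73 were measured, had 10 rises (13.7%) and 15 falls (20.5%), beside 12.9% and 13.7% of all named genes, with a median difference of 0.01. Of the 73, 54 reached the array median in at least 1 group. Among all genes with a mean at or above that median 22.1% rose and 23.5% fell. The share that rose was near that of all named genes, and neither share exceeded that of the brighter genes. The groups below are too small for their shares to be read against either background. The largest rises were those of Vps11 (2.22-fold, limma adjusted p = 2.62e-05), of the tethers HOPS and CORVET that bring endosomes and lysosomes together, Vps45 (1.75-fold), the Sec1/Munc18 partner of Stx16, and Vps39 (1.57-fold), of HOPS. The largest falls were those of Sytl5 (3.99-fold, limma adjusted p = 1.91e-06), a Rab27 effector, Unc13a (2.72-fold), which primes vesicles for exocytosis, and Vps41 (2.09-fold, limma adjusted p = 3.18e-04), of HOPS. Subunits of HOPS and CORVET were thus split, with 3 of 7 risen (Vps11, Vps39 and Vps18) and 2 fallen (Vps41 and Vps16). Of 29 calcium sensors and priming factors 6 fell and 1, Syt7, rose, and 19 of the 29 lay under the array median in both groups. Of 10 exocyst subunits, which tether vesicles at the plasma membrane, 3 fell (Exoc5, Exoc6 and Exoc8) and 1, Exoc3, rose. Of 18 Golgi and ER tethers 2 rose (Uso1 and Gorasp2) and 2 fell (Vps54 and Cog1), and of 5 further Sec1/Munc18 and related proteins 2 rose (Vps45 and Vps33a) and 1, Scfd2, fell. Among the other SNAREs and SNARE relatives, Use1, of the ER, fell 1.73-fold and Sec22c rose 1.43-fold. Beyond the 3 largest rises and falls, these genes are named because the counts are small, after their values were seen. The count of rises was 6 when replicate 3 of either group was left out, and 16 after quantile normalization was applied again.

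**Figure D4:**
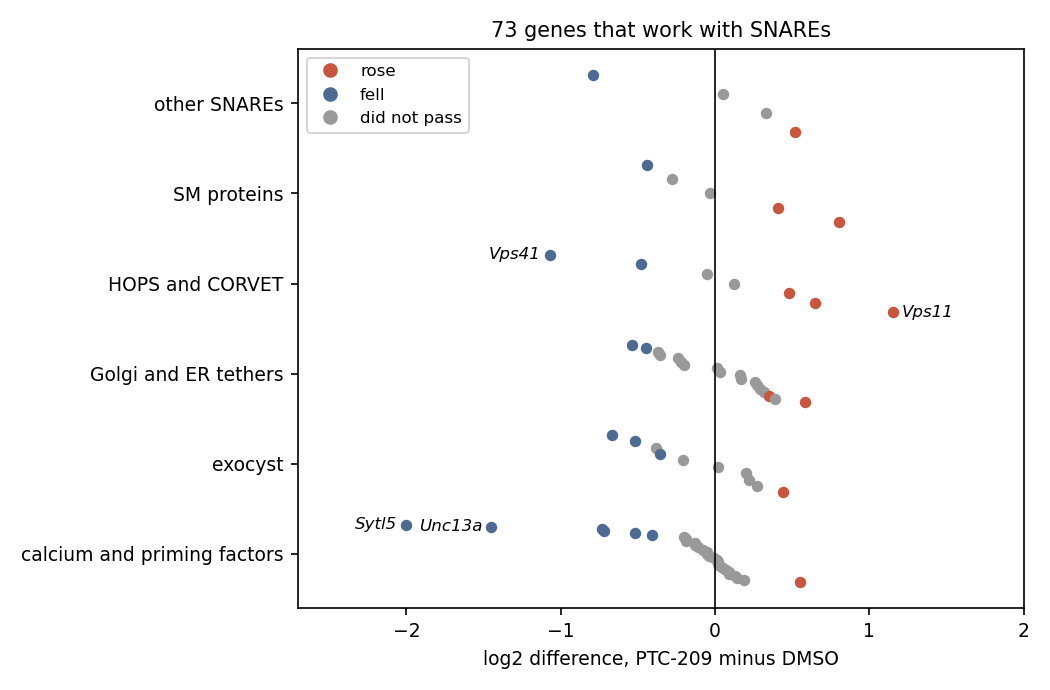
Log2 difference (PTC-209 minus DMSO, x axis) of 73 genes outside the set that work with SNAREs, 1 point per gene, by group, with colour marking genes that rose, fell or did not pass. Vps11 (1.15) and Vps41 (-1.07) are at opposite ends of HOPS and CORVET, and Sytl5 (-2.0) and Unc13a (-1.45) are the lowest.

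The labels were checked on the same arrays. Bmi1 fell from 7.55 to 7.01, and Cebpa was under the array median in both groups, at 3.65 and 3.79, which does not check the knockout since the sources used here do not place its probes. All 6 epithelial markers were above the array median, but Krt8, Krt18 and Krt19 fell (log2 differences -0.83, -1.04 and -0.99) and Cdh1 rose (0.35). Their summed level was 56.40 to 57.23 on the DMSO arrays and 53.33 to 54.08 on the PTC-209 arrays, and its part in the results above was not tested. Of 6 alveolar markers 0 passed the test and 3 reached the array median (Abca3, Ager and Sftpa1), while Nkx2-1, Sftpc and Sftpb lay under it. Of 4 endothelial markers Cdh5 fell, from 9.48 to 8.15, and the other 3 lay under the array median. Because Napb, Snap25 and Stx1a are best known from neurons, neuronal and neuroendocrine markers were read too. Of 9 measured, Snap25 among them, 6 lay under the array median in both groups, including Rbfox3 (3.54 and 3.68), Syn1 (3.91 and 4.03) and Syp (3.57 and 3.79), and Tubb3 rose (3.98 to 4.49) and Map2 fell (4.81 to 4.34). Their summed level was 32.33 to 32.84 on the DMSO arrays and 33.33 to 33.60 on the PTC-209 arrays. Of 5 leukocyte markers measured only Cd68, a lysosomal glycoprotein of macrophages, passed, rising from 7.42 to 10.03. Ptprc (3.17 and 3.06), Csf1r (3.46 and 3.57) and Itgam (3.38 and 3.54) lay under the array median in both groups. Cd3e was at 4.38 and 4.53. The summed level of the 5 was 21.36 to 22.17 on the DMSO arrays and 24.62 to 24.91 on the PTC-209 arrays. Of 4 fibroblast markers 0 passed, and all 4 had a difference above 0 (0.05 to 0.38). The part of other cells in these results was otherwise not tested.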

How the data were processed

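The deposited table holds the authors' log2 values of 34760 probe sets on 6 arrays, which RMA had background-corrected, quantile-normalized and summarised by probe set, per the submitters' processing notes. The values themselves show the scale (medians of the single arrays, control probe sets included, 4.07 to 4.14). RMA hides a shift shared by most genes. A block of 6569 control probe sets, recognised by its unbroken run of identifiers with no listed gene, was left out, and 28191 were tested. Genes were named by probe sets with 1 symbol in the platform annotation (21640 probe sets, against 1321 with several symbols and 5230 with none), so Vamp2, listed with another gene on its probe set, is not included.

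Differences were tested with limma 3.58.1 under R 4.3.3 (lmFit on treatment alone, then eBayes), with Benjamini-Hochberg adjustment over all tested probe sets and a threshold of 0.05. Fold changes are given only where both groups lie at or above 4.33. The fit was tested on simulated data. With 3 arrays in each group, their number limits precision. The members, the lists, the sites of action and the motifs were chosen with earlier results of these data known. Every gene of the set was to be named, with each array's value for Napb and genes that passed, and the 3 largest rises and falls of the related genes. Alternatives were other priors, dim probe sets left out, other normalizations, a fold change above 1.2 required, a block for the replicate number, weighted arrays, averaged probe sets, the control block kept and each array left out. Figures were drawn with matplotlib 3.10.9.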

Additional observations from a re-analysis of the deposited data

How the results depend on the processing

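The median log2 difference of the 42 genes stayed above 0 under all 17 alternatives (0.14 to 0.22). Of the 22 genes counted as changed, Napb included, 7 kept direction and threshold in all 17 (Napb, whose p supports nothing here, Stx5a, Stx3, Bet1l, Snap29, Stx7 and Stxbp6), 14 kept them whichever array was left out, and 0 reversed. Requiring a fold change above 1.2 left 6 rises and 1 fall in the set, and 4 rises and 7 falls among the related genes. That test asks for more than a difference from 0. Quantile normalization applied again gave 16 rises among the related genes and keeping the control block gave 6; the cause was not tested. Leaving out 1 array gave 10 to 15 rises and 4 to 7 falls in the set, and 6 to 12 rises and 12 to 15 falls among the related genes, with fewer arrays in each fit. The labels do not say whether arrays with the same replicate number were paired. Their deviations correlated at 0.23, 0.07 and 0.07, and 3 of 6 arrays correlated best with their own number, which does not settle it. With the replicate block there were 13 rises and 8 falls in the set, the call of Stx16 being lost (limma adjusted p = 0.0678), and 11 and 17 among the related genes. Levels near the array background limit Napb, Vamp1, Snap25, Stx19 and Stxbp5l.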
